A study of Sus scrofa with 9 samples.

Results

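The passage from the early bell stage (E50) to the late bell stage (E60) was followed in germs of the third deciduous molar of the lower jaw in the miniature pig (Sus scrofa). Whole germs were dissected from fetal jaws at embryonic days 50 and 60 and their total RNA was sequenced, with 3 libraries at each stage. No treatment is given beyond anaesthesia of the pregnant sow, no line or sex is named, and the stages differ in the labels by gestational age alone. These 6 libraries are part of a series of 9, whose other 3 are cap stage (E40) germs and serve here as background levels. The table lists 34580 rows, of which 14671 carry a gene symbol other than a LOC number, and 10814 of these reached an FPKM (fragments normalised to transcript length and library total) of at least 1 in 2 or more of the 6 libraries. Those 10814 genes were compared between the stages, and the remaining 3857 symbols fell below that filter. A whole germ holds epithelium, papilla and follicle together, so fewer cells of a type and less RNA per cell cannot be told apart.

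During the bell stage the inner enamel epithelium and the facing papilla mesenchyme leave the cell cycle and become ameloblasts and odontoblasts. Odontoblasts lay down a collagen-rich predentin that mineralises with the help of acidic phosphoproteins, and ameloblasts then secrete the enamel matrix, which is built mainly of amelogenin, ameloblastin and enamelin. The basement membrane between both cell layers is remodelled and lost as they take up secretion.

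The 6 libraries fell into 2 sets. The steps between low FPKM values gave back 13854955 to 16173201 reads in the E50 libraries and 15676848 in E60_1, but 1372508 in E60_2 and 1737525 in E60_3. The E40 libraries held 929841 to 1304612 reads and belonged with the shallow set. The 10 highest rows took 56.4% of the reads in E60_2 and 41.6% in E60_3, against 5.28% to 12.3% at E50 and 8.21% in E60_1. Over the tested genes E60_1 correlated with the E50 libraries at 0.947 to 0.960 and with E60_2 and E60_3 at 0.544 and 0.680, while E60_2 and E60_3 correlated with each other at 0.847. The labels do not say what separated the sets, nor whether the 3 libraries of a stage came from separate fetuses, so p-values measure the spread between these libraries. Each gene was therefore compared in 2 ways, E60_1 with the E50 mean inside the deep set, and the mean of E60_2 and E60_3 with the E50 mean across sets. Values are scaled FPKM, the FPKM divided by a median-ratio factor of each library. Paired differences are in log2(scaled FPKM + 0.1), with E60_1 first and E60_2 with E60_3 second. A gene was called when both differences were at least 1 in the same direction and the larger of both limma p-values, adjusted by Benjamini-Hochberg over all tested genes, was under 0.05.

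By this rule 57 of the 10814 genes (0.527%) rose and 2 (0.0185%) fell from E50 to E60, and in all 59 the E50 libraries did not overlap the E60 libraries. Without adjustment, 593 of the 10814 genes had p under 0.05 in both comparisons, in any direction. A limma-voom fit on the recovered reads called 201 higher and 16 lower. Counts of list members at an unadjusted p or by limma-voom are read against these numbers. The E60_1 comparison alone gave 78 higher and 7 lower genes, and the comparison of E60_2 and E60_3 across sets gave 1856 higher and 1993 lower genes. The second pair changed to 1158 higher and 6135 lower genes without scaling. The median difference over all tested genes was 0.00 in E60_1 and -0.24 in E60_2 and E60_3, and without scaling it was -0.07 and -1.27. Differences of single genes and lists are read against these medians. The 3 E60 libraries lay above all E50 libraries in 10.5% of the tested genes and below them in 13.6%, and without scaling this was so in 457 and 3129 of the 10814. Of the 57 genes that rose, 28 had both differences at 3 or more. Leaving out E50_1, E50_2 or E50_3 left 9, 13 and 26 of the 57 called higher and 0 called lower, leaving out E60_2 or E60_3 gave 216 and 202 higher and 94 and 72 lower genes, and 18 rose and 1 fell without scaling. ENAM, AMBN, AMEL, DSPP, PHEX, MMP25, DMP1, SLC9A2 and LAMA3 were the 9 genes called without each library in turn.

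**Figure D1:**
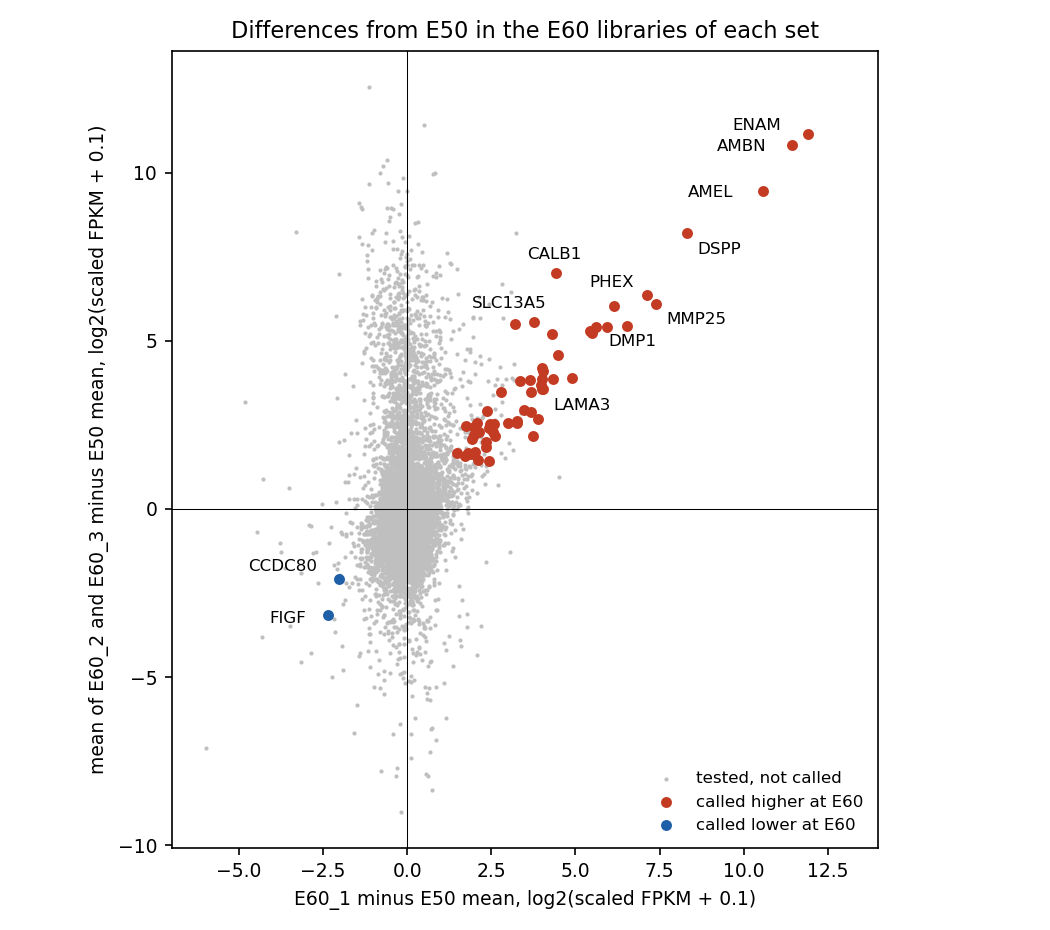
Each point is 1 of the 10814 tested genes, with its difference from the E50 mean in E60_1 on the x axis and in the mean of E60_2 and E60_3 on the y axis, both in log2(scaled FPKM + 0.1). The 57 genes called higher (red) run up the diagonal to ENAM at 11.90 and 11.13, the 2 called lower (blue) are CCDC80 and FIGF, and many grey points lie far from 0 on the y axis and near 0 on the x axis.

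The 3 genes of the main enamel matrix proteins, ENAM, AMBN and AMEL, rose, and ranked by the smaller of both differences they came before all other tested genes. ENAM, the gene of enamelin, the largest enamel matrix protein, stood at 0.16, 0.086 and 0.0403 scaled FPKM in the E50 libraries and at 723, 439 and 411 in E60_1, E60_2 and E60_3. Its differences were 11.90 ± 0.36 and 11.13 ± 0.29 (SE, adjusted p = 3.07e-05), and even its lowest E60 library held 1147 reads. AMBN, which encodes ameloblastin, a matrix protein that ties ameloblasts to the enamel surface, went from 3.53, 3.22 and 2.23 to 8451, 4509.5 and 6756. The E50 and E60 ranges of AMBN lay over 3 orders of magnitude apart, with differences of 11.44 ± 0.36 and 10.83 ± 0.28 (adjusted p = 3.07e-05). AMBN was number 2, 13 and 4 by FPKM among the named symbols in the E60 libraries, after places between 7903 and 8601 at E50. AMEL, the row of amelogenin, the most abundant protein of forming enamel, went from 4.23, 3.95 and 2.9 to 5676, 2047 and 3378, with differences of 10.57 ± 0.36 and 9.46 ± 0.28 (adjusted p = 3.74e-05). The file has a single AMEL row, in which reads of X- and Y-linked copies could be joined or lost.

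The ratio of AMBN to AMEL changed with the stage. It was 0.835, 0.816 and 0.768 in the E50 libraries and 1.49, 2.2 and 2.0 in the E60 libraries, so AMBN was the lower of the pair in every E50 library and the higher in every E60 library. The remaining 3 tested genes of the enamel list did not pass the test. AMTN, the gene of amelotin, a late protein of the ameloblast basal lamina, read 8.06, 9.28 and 11.7 at E50 and 3.92, 2.16 and 1.03 at E60 (differences -1.27 and -2.60, adjusted p = 0.681), below E50 in all E60 libraries but on 1 read each in E60_2 and E60_3. TUFT1, for tuftelin, held between 7.38 and 9.96 across all 6 libraries, and ODAM, an ameloblast-associated protein of maturation, lay between 0.594 and 3.73. The proteases MMP20 and KLK4 were not analysed here.

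**Figure D2:**
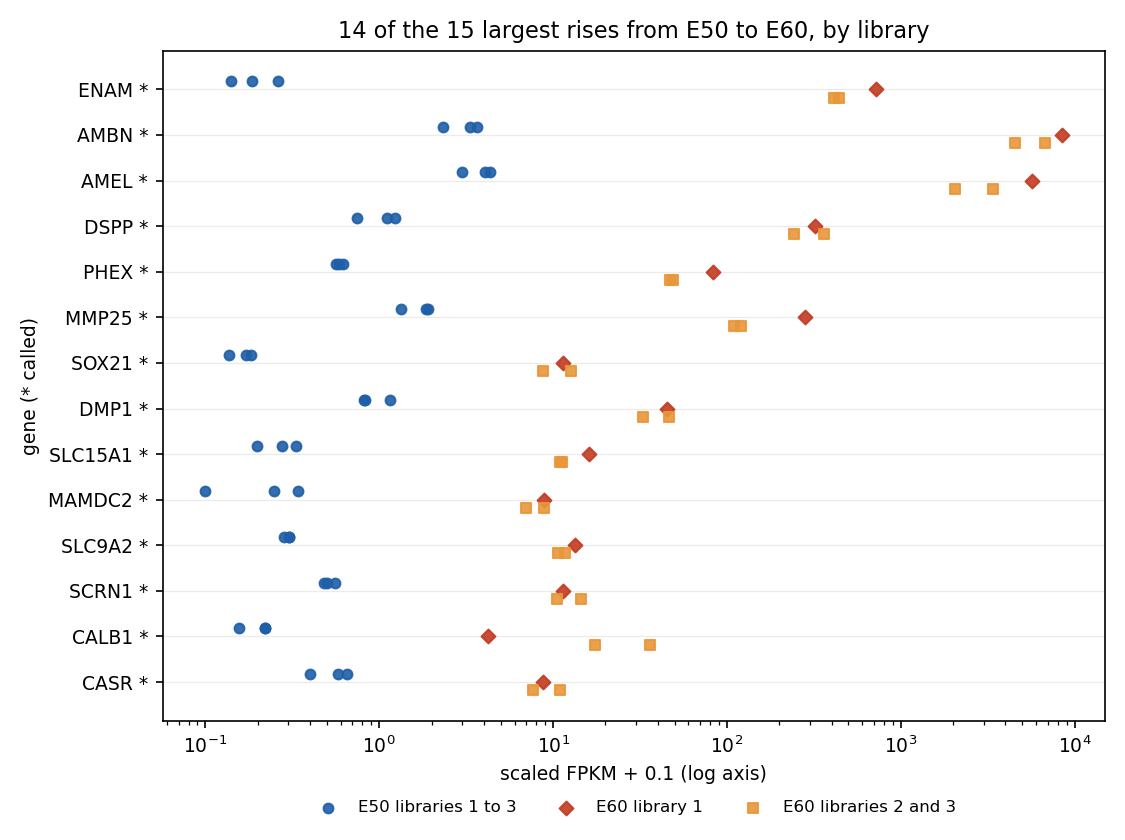
Scaled FPKM plus 0.1 on a log axis for 14 of the 15 genes with the largest rise, one row each, in the E50 libraries (blue circles), E60_1 (red diamonds) and E60_2 and E60_3 (orange squares). In each of the 14 rows the 3 E60 points lie to the right of the 3 E50 points, and in CALB1 E60_1 at 4.11 lies well below E60_2 and E60_3.

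Some genes of dentin matrix and mineral rose as well. Of 15 tested members of the dentin, bone matrix and mineralisation list, 4 were called higher (DSPP, PHEX, DMP1 and PHOSPHO1), against 0.527% of all tested genes. In 10 of the 15 every E60 library lay above every E50 library, against 10.5% of all tested genes. The median differences of the list were 1.16 and 1.30. DSPP, whose product is cut into the dentin sialoprotein and phosphoprotein, stood at 1.0, 1.14 and 0.646 at E50 and at 319, 361 and 244 at E60. Its differences in both sets were close, 8.31 ± 0.36 and 8.20 ± 0.29 (adjusted p = 1.12e-04). DMP1, a phosphoprotein of the same family of mineral-binding proteins, went from 0.726, 1.05 and 0.712 to 45.1, 32.9 and 46.2 (differences 5.62 and 5.41, adjusted p = 8.82e-04). DSPP was 0.907 to 1.38 times DMP1 at E50 and 5.28 to 11.0 times DMP1 at E60.

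PHEX, an endopeptidase of odontoblasts and osteoblasts that governs phosphate handling, read 0.462, 0.49 and 0.517 at E50 and 82.7, 46.8 and 48.8 at E60 (differences 7.13 and 6.35, adjusted p = 4.97e-05). PHOSPHO1, a phosphatase that starts mineral formation in matrix vesicles, went from 0.493, 0.544 and 0.272 to 6.46, 6.36 and 8.43 (differences 3.65 and 3.83, adjusted p = 0.026), on 9 reads in E60_2. The E60 libraries of both genes stood clear of E50.

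The bulk collagen I chains did not pass the test. COL1A1 measured 134, 78.2 and 124.6 at E50 and 503, 356 and 527 at E60, without overlap (differences 2.20 and 1.98, adjusted p = 0.103). COL1A2, its partner in the same triple helix, measured 743, 648 and 617 at E50 and 1848, 659 and 663 at E60, higher in E60_1 and within the E50 range in the other pair (differences 1.47 and -0.01). IBSP, bone sialoprotein, had differences of 1.73 and 1.30 (adjusted p = 0.0725), and SPARC, a calcium-binding matrix glycoprotein, 1.16 and 1.49 (adjusted p = 0.416). ALPL, tissue-nonspecific alkaline phosphatase, is listed at 0 in all libraries, which in these files can be a failed estimate. Without scaling, 4 of the 15 dentin genes lay above E50 in all E60 libraries, against 457 of 10814 tested genes. The median differences of the list were then 1.09 and 0.25. A limma-voom fit on the recovered reads called 7 of the 15 higher, COL1A1, IBSP and SPARC among them, beside 201 of all tested genes.

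Genes linked elsewhere to ameloblasts and enamel made up the next group, and whole germs do not show which cells held their RNA. Of 24 tested genes known for ion transport in ameloblasts or for inherited enamel defects, 6 rose, against 0.527% of all tested genes. In 11 of the 24 all E60 libraries lay above E50, against 10.5% of all tested genes. Without scaling this was so in 8 of the 24, against 457 of 10814. LAMA3, the alpha chain of laminin-332, the adhesive laminin under epithelia, went from 6.22, 7.58 and 6.24 to 111, 75.2 and 83.9 (differences 4.04 and 3.56, adjusted p = 8.42e-04). LAMB3, its beta chain, went from 4.84, 3.58 and 3.85 to 21.1, 13.5 and 20.3 (differences 2.35 and 2.0, adjusted p = 0.0397).

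Among 24 tested basement membrane and hemidesmosome genes limma called 3 higher, against 0.527% of all tested genes. The medians of the list were 0.29 and -0.21. COL17A1, the hemidesmosomal collagen to which laminin-332 is anchored, read 68.2, 61.3 and 56.8 at E50 and 131, 114 and 116 at E60 (differences 1.08 and 0.89, adjusted p = 0.195). LAMB1, of the laminins of other basement membranes, read 108, 114 and 96.7 at E50 and 101, 82 and 82.6 at E60 with overlap of the stages. COL4A1, COL4A2, COL4A5 and COL4A6, chains of the type IV collagen network, lay below E50 in all E60 libraries without being called, as 13.6% of all tested genes did; COL4A1 had differences of -0.32 and -0.96. ITGB6, an integrin subunit that activates TGF-beta and whose loss gives hypoplastic enamel, rose from 4.55, 5.38 and 4.85 to 17.3, 14.3 and 17.4 (differences 1.80 and 1.67, adjusted p = 0.0457).

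The other 3 calls of the enamel defect list began from low E50 levels. ACPT, an acid phosphatase listed under its older symbol (now ACP4), went from 1.5, 1.24 and 1.8 to 25.8, 16 and 22.5 (differences 4.02 and 3.58, adjusted p = 0.00406). RELT, a receptor of the TNF receptor superfamily, went from 1.26, 0.974 and 1.04 to 12, 12.6 and 21.9 (differences 3.35 and 3.82, adjusted p = 0.0188). SLC13A5, a sodium-coupled citrate transporter, went from 0.22, 0.337 and 0.249 to 4.91, 26 and 11, and its differences of 3.78 and 5.55 (adjusted p = 0.0422) were unequal between the sets. SLC13A5 was no longer called at a pseudocount of 0.5 (adjusted p = 0.0560) or 1 (adjusted p = 0.104). RELT and SLC13A5 were also above E50 at the cap stage, at 9.87, 7.49 and 6.59 and 16.9, 12.1 and 7.42. The cap stage libraries are all of the shallow set, so stage and set cannot be told apart there.

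Other members missed the threshold. Of the ion transport genes, ATP2B1 had differences of 1.52 and 0.93 (adjusted p = 0.341) and ATP2B4 of -0.01 and -1.07. FAM20A, a pseudokinase that assists phosphorylation of secreted enamel proteins, had differences of 1.70 and 2.15 (adjusted p = 0.0633). SP6, a transcription factor of enamel epithelium, read 121, 86.5 and 112 at E50 and 149, 136 and 215 at E60 (differences 0.50 and 0.70, adjusted p = 1.0). The maturation-stage genes SLC24A4, a sodium, calcium and potassium exchanger, and WDR72, a vesicle trafficking protein, stayed under the expression filter. SLC24A4 read 0.213, 0.134 and 0.12 at E50 and 0.512, 1.14 and 0 at E60, on 3 reads in E60_2. WDR72 read 0.206, 0.229 and 0.0761 at E50 and 0.355, 1.55 and 0 at E60, on 5 reads in E60_2.

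**Figure D3:**
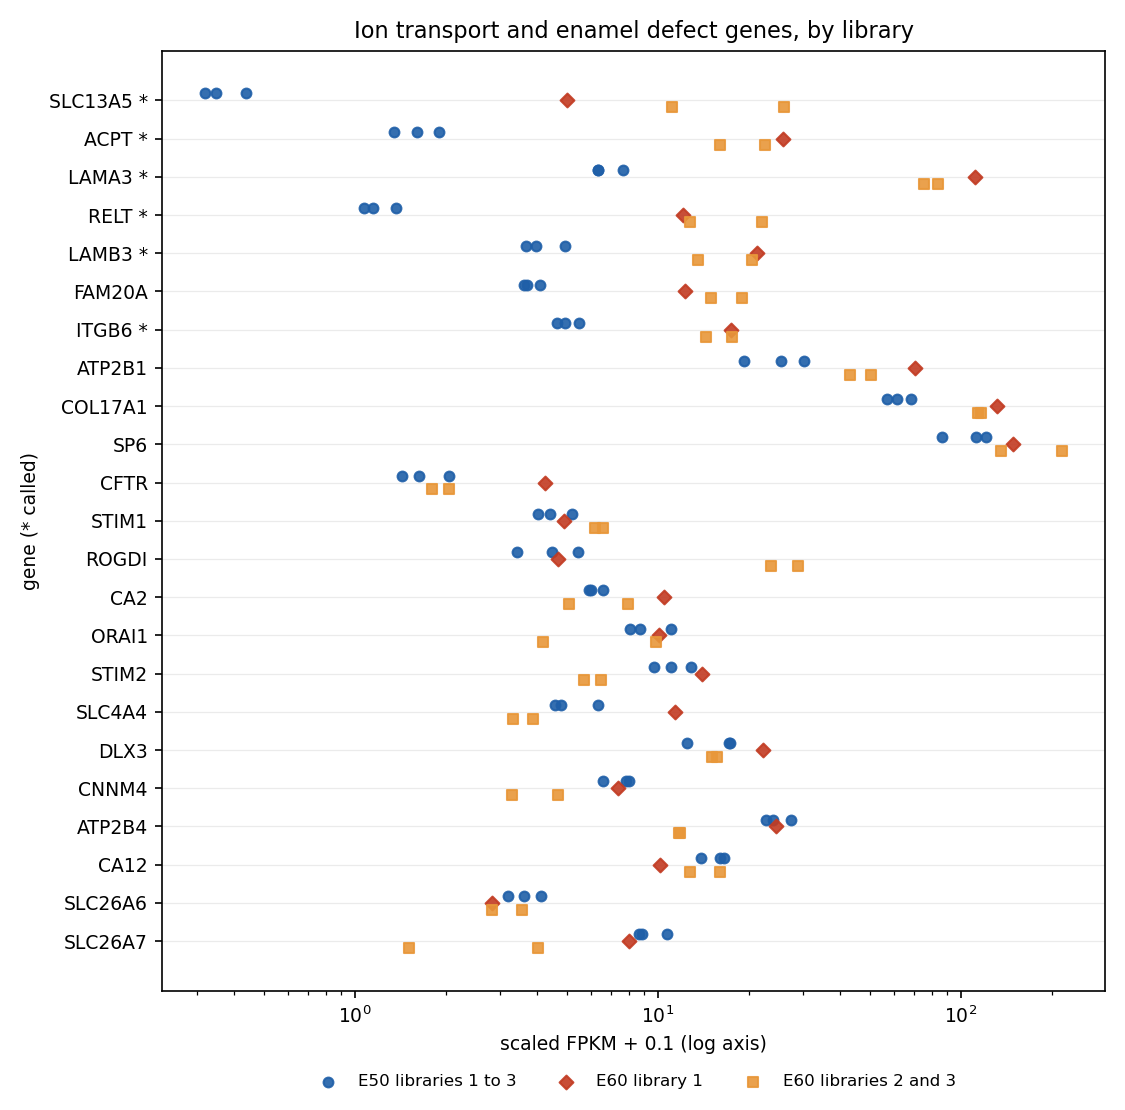
Scaled FPKM plus 0.1 on a log axis for 23 of the 24 tested ion transport and enamel defect genes, ordered by the smaller of both differences, in the E50 libraries (blue circles), E60_1 (red diamonds) and E60_2 and E60_3 (orange squares); called genes carry an asterisk. From SLC13A5 down to SP6 the E60 points lie right of E50, and in the lower rows the stages overlap or E60_2 and E60_3 lie left.

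The collagen list held 2 crosslinking enzymes and 1 collagen chain among its calls. PLOD2, a lysyl hydroxylase that sets the type of collagen crosslink, went from 17.1, 26.6 and 22.1 to 318, 136 and 138 (differences 3.88 and 2.66, adjusted p = 0.00408). LOX, the lysyl oxidase that forms those crosslinks, went from 11.5, 11.3 and 11 to 90, 69.1 and 64.6 (differences 2.99 and 2.56, adjusted p = 0.00205). The E60 values of LOX spread little and lay far from an E50 range of 11 to 11.5. COL11A2, a minor fibrillar chain, rose from a low level, 0.526, 0.305 and 0.39, to 6.27, 5.33 and 5.53 (differences 3.67 and 3.47, adjusted p = 0.0193).

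These 3 were the calls of limma among 26 tested fibrillar collagen and collagen processing genes, against 0.527% of all tested genes called higher. At an unadjusted p under 0.05, 9 of the 26 were higher and 0 lower, beside 593 of all 10814 tested genes in any direction. A limma-voom fit on the recovered reads called 7 higher, these 3 with COL1A1, COL5A3, LOXL4 and PCOLCE, beside 201 of all tested genes. Of the 26, 15 lay above and 3 below E50 in all E60 libraries, against 10.5% and 13.6% of all tested genes. Without scaling 6 lay above and 5 below, against 457 and 3129 of 10814. The median differences of the list were 0.41 and 0.38. COL3A1, a chain of loose connective tissue, was among the lower ones, at 1610.5, 1504 and 1284 in E50 and 1249.8, 667 and 816 in E60 (differences -0.22 and -0.98, adjusted p = 1.0). The shallow cap stage libraries held COL3A1 at 424, 452 and 491, where stage and set cannot be told apart. SERPINH1, the collagen chaperone, read 259.9, 206 and 259 at E50 and 298, 226 and 488 at E60, with overlap.

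Other genes among the largest rises follow. MMP25, a membrane-anchored metalloproteinase best known from leukocytes, went from 1.23, 1.81 and 1.75 to 279, 109.9 and 121 (differences 7.38 and 6.10, adjusted p = 5.57e-05). SOX21, an epithelial transcription factor of hair and enamel organ, went from 0.0712, 0.0818 and 0.0357 to 11.3, 8.67 and 12.7 (differences 6.14 and 6.03, adjusted p = 0.00266). SCRN1, secernin, which takes part in regulated exocytosis, went from 0.454, 0.403 and 0.38 to 11.2, 10.4 and 14.3 (differences 4.47 and 4.59, adjusted p = 0.0037). In all 3 the lowest E60 library lay far above the highest E50 library.

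SLC15A1, a proton-coupled peptide transporter, went from 0.175, 0.232 and 0.0976 to 16, 11.1 and 10.9 (differences 5.94 and 5.41, adjusted p = 0.00215). SLC9A2, a sodium and proton exchanger, went from 0.202, 0.202 and 0.184 to 13.3, 11.6 and 10.5 (differences 5.50 and 5.23, adjusted p = 0.00153). CASR, the calcium-sensing receptor, went from 0.553, 0.479 and 0.302 to 8.63, 10.9 and 7.57 (differences 4.03 and 4.10, adjusted p = 0.0156). In these 3 genes E60_1 lay closer to E60_2 and E60_3 than to any E50 library.

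CALB1, the calcium buffer calbindin, differed between the sets. It read 0.12, 0.0552 and 0.121 at E50, on at most 3 reads in each library, and 4.11, 36.2 and 17.3 at E60 (differences 4.42 and 7.0, adjusted p = 0.0212). The shallow cap stage libraries held it at 52.7, 34.4 and 30.6, where stage and set cannot be told apart. At a pseudocount of 1 CALB1 was not called (adjusted p = 0.0726). MAMDC2, an extracellular matrix proteoglycan, also began at 3 reads or fewer in each E50 library and went from 0.241, 0.148 and 0 to 8.76, 6.92 and 8.8 (differences 5.44 and 5.28, adjusted p = 0.028), on 3 and 8 reads in E60_2 and E60_3. For such genes, which also included SOST and PLSCR5, the size of the difference depends on the pseudocount.

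Of the 8 tested immune and macrophage markers limma called 0 (1 higher at an unadjusted p under 0.05, 0 by limma-voom). In 3 of the 8 all E60 libraries lay above E50, against 10.5% of all tested genes, and the medians were 0.94 and 1.14. The summed level of the 13 listed immune genes was 11.9 to 14.9 at E50 and 25.6 to 33.5 at E60. PTPRC, the pan-leukocyte marker, was under the filter at 0.217 to 0.399 in E50 and 0.425 to 1.33 in E60. The part of immune cells in the MMP25 values was not tested.

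MYL1, a myosin light chain of fast muscle, rose from 6.36, 5.62 and 7.86 to 88.3, 24.5 and 36 (differences 3.73 and 2.16, adjusted p = 0.0187), while the other 9 tested muscle markers were not called. The summed level of the 16 listed muscle genes was 32.3 to 39.5 at E50 and 67.0 to 106 at E60, of which MYL1 made the larger share in E60_1. MYLPF, another fast light chain, read 8.97, 9.33 and 8.85 at E50 and 6.04, 4.55 and 4.34 at E60, and ACTA1, skeletal actin, had differences of -0.73 and 0.39. SOST, an inhibitor of WNT signalling made by osteocytes, rose to 3.31, 2.34 and 2.24 (differences 3.46 and 2.95, adjusted p = 0.0467) on 1 and 2 reads in E60_2 and E60_3. BGLAP, osteocalcin, had differences of -0.47 and 0.45. Of the 5 tested osteoblast markers limma called 2 higher, PHEX and SOST, beside 57 of all 10814 tested genes. The medians of that list were 1.11 and 0.45. The part of bone cells in the values of PHEX, DMP1, PHOSPHO1 and IBSP was not tested.

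Further calls are given here that were chosen after their values were seen. CKMT1B, a mitochondrial creatine kinase whose reads may be shared with a near-identical copy, went from 4.93, 5.05 and 5.68 to 107, 55.8 and 107 (differences 4.34 and 3.87, adjusted p = 0.00406). DIO2, the deiodinase that activates thyroid hormone, went from 1.24, 1.03 and 0.937 to 34.9, 21.4 and 13.6 (differences 4.91 and 3.88, adjusted p = 0.00205). PAPLN, papilin, a matrix protein related to the ADAMTS proteases, went from 3.04, 2.09 and 2.44 to 41.9, 29.3 and 49 (differences 4.02 and 3.87, adjusted p = 0.00484). Each of these 3 had its lowest E60 library far above its highest E50 library.

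Also called were CHST1, a keratan sulfate sulfotransferase (differences 3.98 and 3.69), CHST13, a chondroitin sulfotransferase (3.21 and 5.48), and ARSB, the lysosomal sulfatase that degrades dermatan sulfate (2.79 and 3.48). CHST13 read 2.44 in E60_1 and 12.2 and 12.1 in E60_2 and E60_3. In the shallow cap stage libraries CHST13 read 12.5, 16.9 and 5.96 and ARSB 33.6, 22.1 and 19.2, and stage and set cannot be told apart there. SLC20A2, a phosphate transporter, read 17.2, 16.2 and 16.9 at E50 and 46.5, 50.8 and 56.5 at E60 (differences 1.47 and 1.67, adjusted p = 0.048). Its values in the shallow cap stage libraries were still higher, at 173, 169 and 118. The sphingomyelin synthase SGMS2 had differences of 2.43 and 1.41 and the carboxypeptidase CPE 1.75 and 2.47. GPX3, a secreted glutathione peroxidase, went from 1.17, 0.643 and 1.54 to 18.4, 21 and 20.5 (differences 4.0 and 4.17, adjusted p = 0.0172). The shallow cap stage libraries held GPX3 at 8.22, 12.5 and 5.49, also above E50.

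Set against the cap stage, the 57 risers were of unlike history. The mean E40 level was within 1 log2 unit of E50 in 30, at least 1 unit above E50 in 14 and at least 1 unit below in 13. The E40 libraries belong to the shallow set, so stage and set cannot be told apart in this contrast. The E60_1 difference was the larger in 38 of the 57.

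Both genes that fell encode secreted proteins. CCDC80, a matrix protein of mesenchymal and fat-forming cells, stood at 30.2, 33.4 and 27.4 at E50 and at 7.41, 7.02 and 7.08 at E60. Its E60 libraries lay within a narrow range and its differences were near equal, -2.01 ± 0.24 and -2.08 ± 0.19 (adjusted p = 0.0212). FIGF, the older symbol of the lymphatic growth factor VEGFD, stood at 20.9, 25 and 25.8 at E50 and 4.54, 2.16 and 3.09 at E60, with 3 reads in E60_2 (differences -2.37 and -3.16, adjusted p = 0.026); it lay outside the naming rule because the gene table gave it no type. Neither gene was called without scaling, or when E50_1, E50_2 or E50_3 was left out.

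Transcription factors that pattern the early tooth gave 0 calls. Of 22 tested odontogenic transcription factors limma called 0, as did limma-voom, and the median differences were -0.61 and -0.57. At an unadjusted p under 0.05, 7 were lower, beside 593 of all 10814 tested genes in any direction. In all E60 libraries 9 lay below E50, against 13.6% of all tested genes (12 without scaling, against 3129 of 10814). BARX1, a homeobox factor of molar mesenchyme, came nearest to the threshold, at 74.1, 64.1 and 69.7 in E50 and 22.9, 30.7 and 33.8 in E60 (differences -1.59 and -1.10, adjusted p = 0.0672). TFAP2B, a neural crest factor, had differences of -1.49 and -1.66 (adjusted p = 0.26), OSR2, which restricts the tooth field, -1.20 and -1.22 (adjusted p = 0.503), and PAX9, needed in mesenchyme for tooth budding, -1.02 and -0.79 (adjusted p = 0.351). In each of these 3 the E60 libraries lay below E50.

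LHX8, a mesenchymal LIM homeobox factor, read 158, 175 and 179 at E50 and 145, 81.1 and 111 at E60. In the shallow cap stage libraries LHX8 read 88.8, 103 and 97.9, and stage and set cannot be told apart there. Among 10 tested factors of odontoblasts and osteoblasts limma called 0 (2 higher at an unadjusted p under 0.05), and limma-voom called KLF4 higher, at differences of 1.75 and 1.20 on the FPKM scale. DLX3, a homeobox factor of both cell layers, had differences of 0.53 and -0.01.

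The 6 signalling lists (hedgehog, WNT, BMP with activin and TGF-beta, FGF, Notch and ectodysplasin) held 1 call of limma. It was BAMBI, a decoy receptor that dampens BMP and TGF-beta signals, which rose from 64.1, 59.6 and 70.3 to 245, 228 and 325 (differences 1.93 and 2.08, adjusted p = 0.0471). Of the 35 tested BMP, activin and TGF-beta genes, 10 lay above and 2 below E50 in all E60 libraries (10.5% and 13.6% of all tested genes). Without scaling 2 lay above and 6 below, against 457 and 3129 of 10814. At an unadjusted p under 0.05, 5 of the 35 were higher and 0 lower, beside 593 of all 10814 tested genes in any direction. By limma-voom BAMBI and SMAD6, an intracellular BMP inhibitor, were called higher, beside 201 of all tested genes. LTBP1, which holds TGF-beta in the matrix, had differences of 0.71 and 0.55 (adjusted p = 0.726).

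In the FGF list 7 of 17 tested genes lay below E50 in all E60 libraries and 0 above, against 13.6% and 10.5% of all tested genes, with medians of -0.56 and -0.45. Without scaling 10 of the 17 lay below, against 3129 of 10814. FGF4, a ligand of the enamel knot, read 2.35, 2.32 and 2.11 at E50 and 0.162, 0 and 0 at E60, on 2 reads in E60_1 (adjusted p = 0.135). In E60_2 and E60_3 1 read was worth 12.1 and 9.48 times its FPKM value in E50_2 before scaling. Division by scale factors of 0.484 and 0.795, against 1.25 in E50_2, widened this gap in scaled FPKM. At that depth FGF4 at its E50 level could be missed, so both zeros carry little weight. FGF3, a ligand of papilla and enamel knot, had differences of -0.99 and -1.29, and the feedback inhibitor SPRY2 -0.91 and -1.56, and the FGF-responsive factor ETV4 -1.01 and -0.94. By limma 0 of the 17 were called, 3 were lower at an unadjusted p under 0.05, and limma-voom called 0.

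SHH, the epithelial hedgehog ligand, measured 129, 113 and 136 at E50 and 139, 227 and 276 at E60, above E50 in each E60 library but by little in E60_1 (differences 0.14 and 0.99). Its target GLI1 measured 14.3, 12.7 and 14 at E50 and 8.13, 2.45 and 5.84 at E60, below E50 throughout (differences -0.74 and -1.82, adjusted p = 1.0), and its receptor and target PTCH1 had differences of -0.15 and -0.77. Of 11 tested hedgehog genes limma called 0 (1 lower at an unadjusted p under 0.05, 0 by limma-voom). Of 39 tested WNT pathway genes 6 lay above and 9 below E50, against 10.5% and 13.6% of all tested genes. Without scaling 1 lay above and 14 below, against 457 and 3129 of 10814. By limma 0 were called (1 higher and 6 lower unadjusted), against 1 higher and 2 lower by limma-voom (WNT4, RSPO2 and FZD2). SFRP1, a secreted WNT inhibitor, read 172, 173 and 172 at E50 and 101, 70.8 and 108 at E60 (differences -0.77 and -0.98, adjusted p = 0.79), DKK1, an inhibitor of WNT coreceptors, had -0.27 and -0.60, and WNT4, an epithelial ligand, 1.40 and 1.54 (adjusted p = 0.163). The shallow cap stage libraries held SFRP1 at 111, 118 and 128, where stage and set cannot be told apart. Of 15 tested Notch genes 1 lay above E50, and of 5 ectodysplasin genes 1 lay above and 1 below, with 0 calls by limma, unadjusted or by limma-voom in either list.

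Proliferation genes held the largest share of lower values among the 25 lists. Of the 25 tested genes limma called 0 (0 by limma-voom). At an unadjusted p under 0.05, 9 were lower, beside 593 of all 10814 tested genes in any direction. In all 3 E60 libraries 21 lay below E50, against 13.6% of all tested genes. Under other scalings 19 to 24 lay below, where 1233 to 3129 of the 10814 tested genes did. The median differences were -0.64 in E60_1 and -1.42 in E60_2 and E60_3, beside 0.00 and -0.24 over all tested genes, and -0.71 and -2.46 without scaling. The summed level of the 28 listed proliferation genes was 943 to 1122 at E50 and 703 in E60_1. It was 473 to 536 in the shallow cap stage libraries and lower still in E60_2 and E60_3. The lower level in E60_2 and E60_3 cannot be assigned to stage or set. UHRF1, which copies DNA methylation at replication, read 41.9, 32.3 and 32.9 at E50 and 14.2, 16.9 and 18.6 at E60 (differences -1.31 and -1.0, adjusted p = 0.147). MCM2, a subunit of the replicative helicase, read 52.4, 43 and 45.7 at E50 and 24.3, 20.2 and 26 at E60 (differences -0.94 and -1.03, adjusted p = 0.389).

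CCNB1, cyclin B1 of mitosis, read 53.5, 71.2 and 69.5 at E50 and 42.2, 25.6 and 25.1 at E60 (differences -0.60 and -1.34, adjusted p = 0.907), and CDK1, its kinase partner, read 58, 80.8 and 85.9 at E50 and 54.7, 3.42 and 16.3 at E60, with 3 reads in E60_2. In both genes E60_1 was just under the E50 range and E60_2 and E60_3 far under it. PCNA, the replication clamp, and MKI67, the Ki-67 antigen, were within the E50 range in E60_1 (differences -0.25 and -2.78 and 0.07 and -1.33). CCNA2, cyclin A2, had differences of -0.60 and -0.05, with E60_2 at 68.3 above its E50 range. The shallow cap stage libraries held CCNB1 at 25.2, 24.2 and 29.4 and PCNA at 16.5, 23.4 and 21.7, near E60_2 and E60_3. CCNA2 did not share this low level, at 55.6, 54.7 and 36.2. Stage and set cannot be told apart there.

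**Figure D4:**
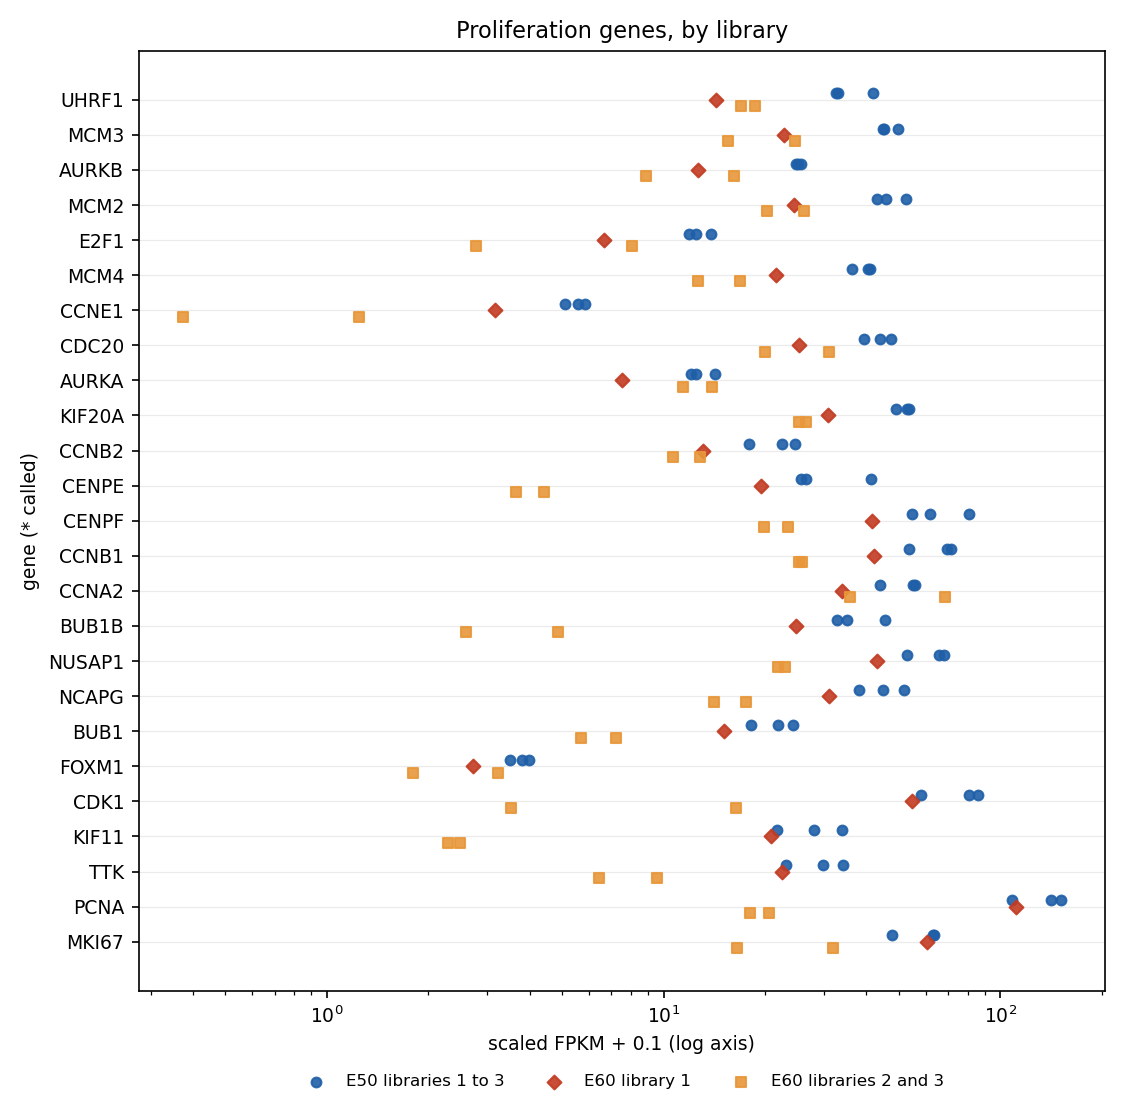
Scaled FPKM plus 0.1 on a log axis for the 25 tested proliferation genes, ordered by the E60_1 difference, in the E50 libraries (blue circles), E60_1 (red diamonds) and E60_2 and E60_3 (orange squares). In 21 rows all E60 points lie left of the E50 points, and CCNA2, AURKA, PCNA and MKI67 are the rows in which they do not.

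General epithelial and secretory genes gave 0 calls by limma. KRT14, the basal keratin, measured 385, 297 and 450.2 at E50 and 580.5, 681 and 1327 at E60 (differences 0.64 and 1.35), and its partner KRT5 1754, 1371 and 1799 at E50 and 1771, 1775 and 3315 at E60 with overlap. Of 20 tested keratin and junction genes 3 lay above and 3 below E50, against 10.5% and 13.6% of all tested genes. Without scaling 0 lay above and 5 below, against 457 and 3129 of 10814. Among the 20, 1 was higher and 1 lower at an unadjusted p under 0.05, and limma-voom called 0. Of 34 tested secretory pathway genes 8 lay above E50 and 0 below, against 10.5% and 13.6% of all tested genes. Without scaling 0 lay above, against 457 of 10814. The medians were 0.46 and -0.05, and 3 were higher at an unadjusted p under 0.05. KDELR3, a retrieval receptor of endoplasmic reticulum proteins, had differences of 1.41 and 1.19 (adjusted p = 0.0735) and was the call of limma-voom in this list, and the chaperone CALR was level at 315, 319 and 311 at E50 and 329, 326 and 343 at E60. Of 21 tested matrix proteases and inhibitors 4 lay above and 1 below, against 10.5% and 13.6% of all tested genes, with medians of 0.05 and 0.05. At an unadjusted p under 0.05, 1 was higher, and limma-voom called 0. MMP14, a membrane collagenase, read 82.8, 71.5 and 80.1 at E50 and 95, 92.3 and 148 at E60.

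**Figure D5:**
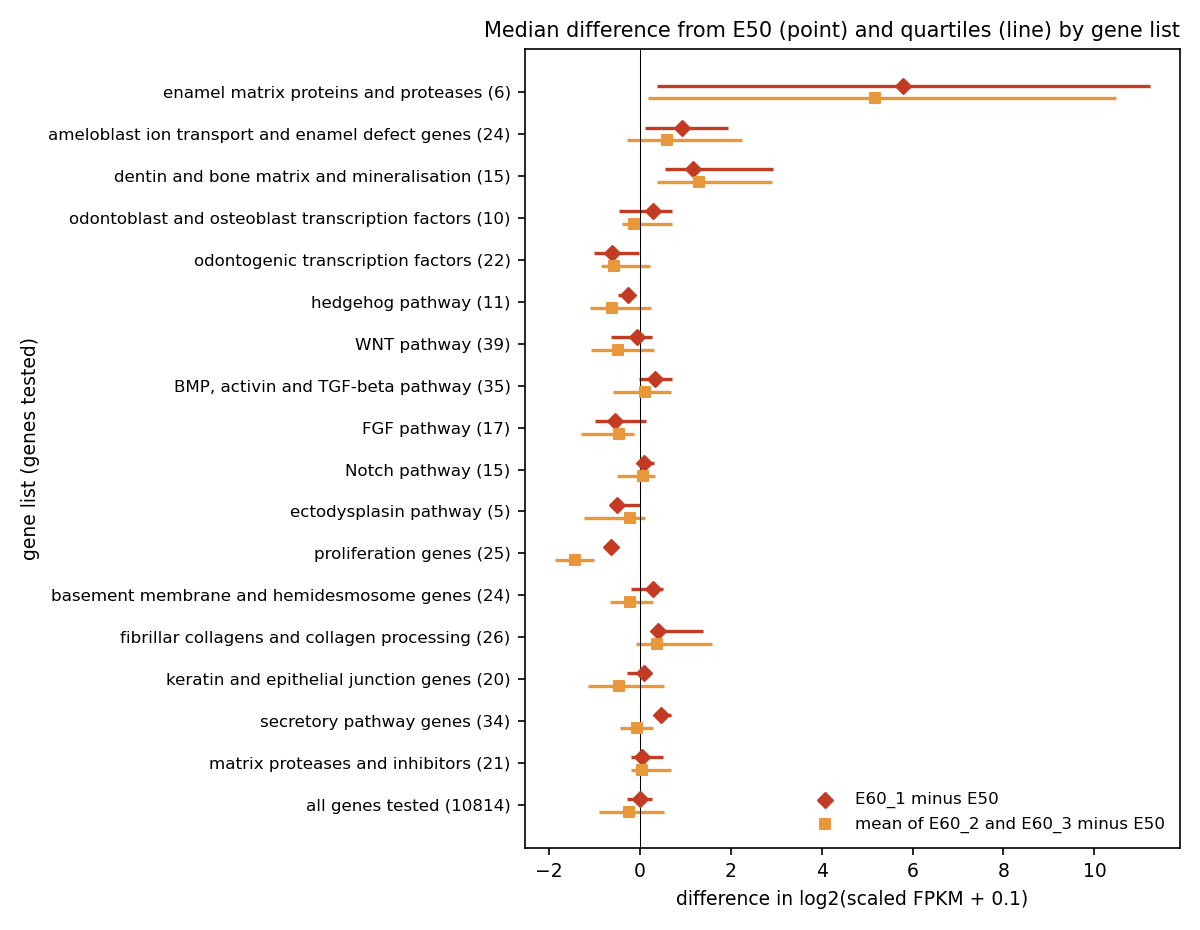
Median difference from the E50 mean (point) and quartiles (line) of each gene list, in log2(scaled FPKM + 0.1), for E60_1 (red) and the mean of E60_2 and E60_3 (orange), with the number of genes tested in brackets. The enamel matrix list lies farthest right at 5.78 and 5.17, the proliferation list farthest left at -0.64 and -1.42, and all genes tested at 0.00 and -0.24.

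Markers of blood, endothelium, osteoclasts, cartilage and nerve gave 0 calls by limma (1 cartilage gene lower and 1 nerve gene higher at an unadjusted p under 0.05, the nerve gene GAP43 also by limma-voom). Among 11 tested endothelial genes 0 lay above E50 in all E60 libraries and 1 below (10.5% and 13.6% of all tested genes). PECAM1, an endothelial adhesion molecule, had differences of 0.30 and 0.07. Of 5 tested erythroid genes 1 lay above and 1 below E50 in all E60 libraries, with medians of -0.06 and 2.07. HBB, beta globin, was the lower one, at 653, 577 and 766 in E50 and 543, 184 and 426 in E60. EPB42 was the higher one (differences 0.24 and 4.50), and HBM had differences of -0.06 and 2.07. The summed level of the 10 listed cartilage genes was 167 to 202 at E50, 333 in E60_1 and 132 and 141 in E60_2 and E60_3. HAPLN1 made the larger share of each sum, at 130, 174 and 163 in E50 and 299, 73.9 and 90.2 in E60. COL9A1 had differences of 0.42 and 0.37, and COL9A2 of -0.03 and 0.40. Of 5 tested osteoclast genes 0 lay beyond E50 in either direction, with CTSK, the osteoclast collagenase that fibroblasts also make, at 34.2, 40.4 and 40.6 at E50 and 51.4, 24.4 and 23.7 at E60. Among 4 tested nerve and Schwann cell genes GAP43, of growing axons, had differences of 1.34 and 1.32 (adjusted p = 0.309), and the Schwann cell factor SOX10 was at most 0.0595 at E50 and 0.407 at E60.

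In some regulators the E60 libraries went apart by set, so that no stage difference can be read from them. RUNX2, the bone and odontoblast factor, measured 3.87, 4.24 and 4.28 at E50, 2.88 in E60_1 and 41.9 and 14.7 in E60_2 and E60_3, beside 51.1, 38.6 and 28.9 in the shallow E40 libraries. FGF2, a growth factor bound to matrix, measured 4.94, 6.5 and 5.55 at E50 and 4.39, 91.6 and 34.5 at E60, beside 101, 61.9 and 59.5 at E40. COL10A1, the collagen of hypertrophic cartilage, was listed at 0 in E60_1 and at 21.8 and 10.1 in the others, beside 29, 19.5 and 16.2 at E40. These 3 genes, picked once their values were known, were alike in the shallow libraries of E40 and E60 and low in the deep libraries of E50 and E60. A single gene was called in opposite directions by the 2 comparisons, the microRNA precursor row MIR143, at differences of -4.83 and 3.19, on 0 reads in E60_1, 2 each in E60_2 and E60_3 and 4 or 5 in each E50 library.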

How the data were processed

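Per the file headers and labels the authors deposited FPKM values, made per the methods from clean reads aligned with TopHat, and the processing notes name the build Sscrofa10.2. FPKM relates each gene to its length and library total, so a few abundant rows lower all others. Whether counting used strand, the counter and the annotation release are not given in the sources used here. Whole reads were recovered from FPKM steps (tolerance 0.02) in 28962 of 28963 rows above 0, between 929841 and 16173201 per library, and served for depth and a limma-voom alternative. FPKM was divided by median-ratio factors of the 6 libraries (0.484 to 1.33, from 15599 rows), a pseudocount of 0.1 added, log2 taken, and limma 3.58.1 (R 4.3.3, trend) fitted with E50, E60_1 and E60_2 with E60_3 as coefficients, which takes E60_1 to vary like the rest (3 residual degrees of freedom). Scripts were tested on simulated data. Named genes were the 4 markers, the 15 largest called changes per direction (protein coding in RefSeq, mean of at least 5, no overlap), and in each of 25 gene lists the called members and up to 4 others by level. Other genes were named after their values were seen. Members and lists were chosen with earlier results of these data known. Gene types came from RefSeq (10258 of 10814 matched). Some named genes are not reported here.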

Additional observations from a re-analysis of the deposited data

Results flagged for a closer look

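Rows with a LOC symbol lay outside the comparison, and 4 of them were called when all symbols were fitted together. LOC102166578 was higher at E60 (smaller difference 4.38), with 1, 1 and 2 reads at E50 and 117, 2 and 4 at E60, and LOC102158142 was higher (2.78), at 2.91, 3.24 and 3.69 scaled FPKM in E50 and 23, 30.7 and 23 in E60. LOC733603 was lower (-8.32), at 32.2, 25.8 and 39.2 in E50 and listed at 0 in all E60 libraries. LOC100737594 was lower (-5.83), at 5.37, 5.98 and 5.43 in E50 and listed at 0 in all E60 libraries. Against a floor of 3 reads per library, LOC733603 was at least 145-fold lower in E60_1 and at least 4.89-fold lower in E60_2, and LOC100737594 at least 102-fold and 3.43-fold. These bounds cover counting error only, and the fitted differences of both rows depend on the pseudocount.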

How the results depend on the processing

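Higher and lower calls in both sets (57 and 2) moved with scaling, filter and model. They were 18 and 1 with no scaling, 22 and 0 with no filter on low values, 27 and 4 with all 9 libraries in the fit, 25 and 2 with all symbols, 46 and 5 with no trend, 201 and 16 by limma-voom on the recovered reads, and 74 and 5 with 2 groups and no set term. For E60_1 alone (78 and 7) they were 35 and 4 with no scaling, 23 and 0 with no filter, 50 and 9 with 9 libraries, 28 and 4 with all symbols, 58 and 11 with no trend, and 376 and 151 by limma-voom. For E60_2 and E60_3 (1856 and 1993) they were 1158 and 6135 with no scaling, 1571 and 3191 with upper-quartile scaling, 1109 and 1822 at a minimum FPKM of 5, 4806 and 2960 with all symbols, and 2172 and 1133 by limma-voom. Leaving out 1 library gave 9 to 1856 higher and 0 to 1991 lower calls in both sets, the top values without E60_1, where a single comparison remains, and 14 to 368 higher and 0 to 197 lower calls for E60_1. The causes were not tested. ENAM, AMBN, AMEL, PHEX and DMP1 stayed called under all 19 alternatives. No named gene reversed.

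Same-numbered libraries of both stages correlated at -0.49, -0.13 and 0.03 in their deviations from the stage means, and different-numbered ones at -0.42 to 0.36. Deviations from a mean of 3 libraries are tied to each other, so these values do not settle whether the numbers mark pairs. With the replicate block in the 2-group fit, 15 genes were called higher and 0 lower (1358 at an unadjusted p under 0.05), and all 15 were among the 57. Depth limits E60_2 and E60_3 most, where 1 read was worth 12.1 and 9.48 times its FPKM value in E50_2 before scaling. Scaling widened the gap, so that 3 reads of ENAM were worth 0.0368 scaled FPKM in E50_2, 1.15 in E60_2 and 0.548 in E60_3. Of the 59 called genes 8 had under 10 reads in E60_2.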
